A study of Mus musculus with 4 samples.

Results

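The genes described here are 10 mouse genes of the CXC and CX3C chemokine systems: the ligands Cxcl1, Cxcl2, Cxcl5, Cxcl9, Cxcl10, Cxcl12 and Cx3cl1 and the receptors Cxcr2, Cxcr4 and Cx3cr1. They were chosen by name, out of 20659 genes that the probes' RefSeq accessions named on the array. All 10 were found, with 13 probes between them. Chemokines are small secreted proteins that bind receptors on leukocytes and other cells and steer their migration. They are named after the spacing of their first cysteines. In the infarcted heart, ligands of CXCR2 draw neutrophils, ligands induced by interferon draw activated T cells and natural killer cells, CXCL12 retains and recruits cells that carry CXCR4, and CX3CL1 binds CX3CR1 on monocytes and macrophages.

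Male mice had the left anterior descending artery of the heart tied off, which causes a myocardial infarction, and whole hearts were studied 5 days later. The knock-out group (KO) consisted of VE-Cad-Cre-S1pr1 fl/fl mice, in which a Cre recombinase under the VE-cadherin promoter, active in endothelial cells, is meant to delete S1pr1, a receptor for sphingosine 1-phosphate. The other group was labelled wild type (WT), without naming a Cre or floxed allele, and no age or strain was given. Both groups had infarcts and there were no hearts without one, so the values compare genotypes within injured hearts. There were 2 arrays per genotype, KO replicates 3 and 4 and WT replicates 1 and 3. The labels do not state that the arrays of a genotype are different animals, so the p-values reflect how far these samples spread, possibly for technical reasons alone.

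The arrays were Agilent arrays read in a single Cy3 channel, on which total RNA was measured. Levels are given as the log2 signal relative to the 75th percentile of the same array, and a difference is the KO mean minus the WT mean of these levels. A level cannot be set against that of another probe. All 4 arrays lay on 1 slide, the KO arrays at positions 1 and 2 and the WT arrays at positions 3 and 4, so slide position and genotype cannot be told apart. WT replicate 1 stood apart: 54.3% of its probes were well above background, against 69.4% to 73.4% on the other 3 arrays. The 16 ventricular cardiomyocyte markers were detected on every array, with a mean level of 5.92 and 6.71 in KO hearts against 2.06 and 6.11 in WT hearts, the low value being WT replicate 1. The targeted gene S1pr1 had levels of -2.69 and -2.30 in KO hearts, against 0.43 and 0.95 in WT hearts, and was lower on each KO array than on each WT array (difference -3.19, SE 0.38, adjusted p = 0.740 in limma). Whether its probe lies in the deleted stretch was not tested.

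Across the chemokine genes, those of CX3CR1, CXCL10, CXCR2 and CXCR4 had lower means in KO hearts and those of CXCL1 and CXCL9 had higher means, but none passed the test. The signals of Cxcr2 were near background. Of the 9 members that could be tested, 7 had a lower and 2 a higher mean in KO, where 45.2% of all 22925 tested features were lower. limma called 0 of the 9 at an adjusted p under 0.05, as it called 0 of all features (percent called 0). At an unadjusted p under 0.05 the count was also 0 of 9, against 2.76% of all features (1.35% lower and 1.41% higher in KO), and the smallest adjusted p of a member was 0.740. The median difference of the 9 was -0.60, and that of all features was 0.07. The genotypes' arrays did not overlap for 3 of the 9 members, which is close to the 34.4% of all features whose arrays did not overlap. Cxcl10 and Cx3cr1 were lower without overlap, as were 16.1% of all features, and Cxcl9 was higher without overlap, as were 18.3%. With 2 arrays against 2, an exact two-sided permutation test cannot give a p below 0.333. On simulated data with each gene's fitted spread taken as its true spread, limma recovered 0 of 200 genes given a log2 change of 4 among 22925 features. Spreads fitted from 4 arrays are imprecise, so this is a rough guide. The absence of calls does not show that expression was alike. Cxcl2 failed the filter, which asked for a signal well above background on at least 2 arrays.

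**Figure D1:**
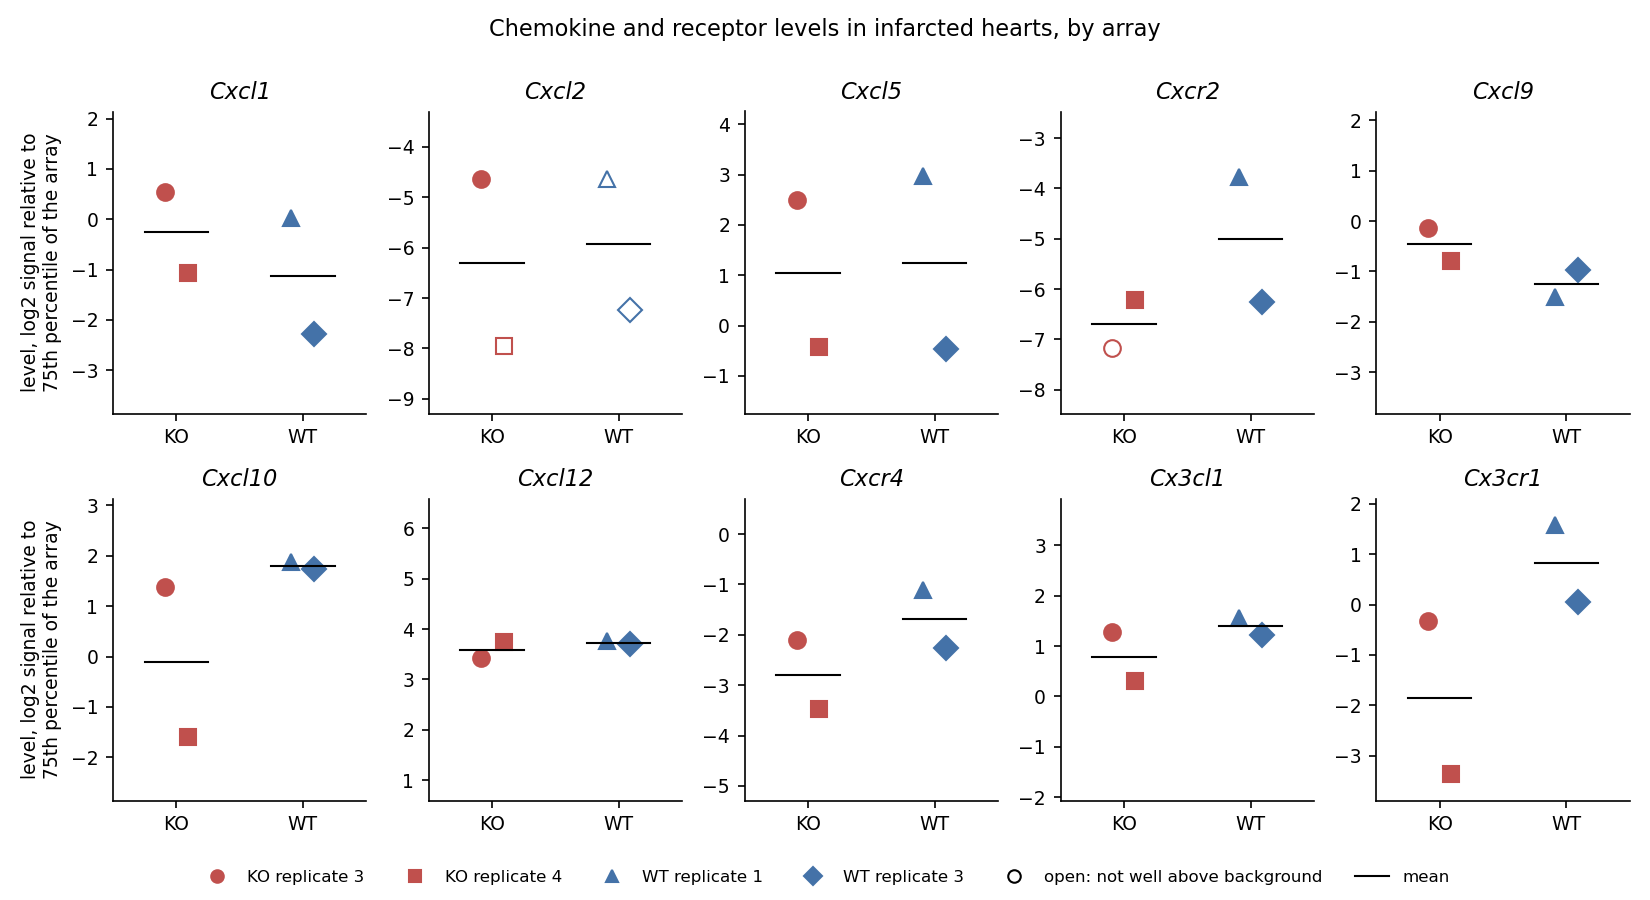
Level of each member (log2 signal relative to the 75th percentile of its array) on the 2 KO and 2 WT arrays, using the brighter probe where a gene has several; bars are means and open symbols mark signals not well above background. Every panel spans 6 log2 units. KO and WT points are separate for Cxcl9, Cxcl10 and Cx3cr1, and Cxcl1 and Cxcl5 are high on KO replicate 3 and WT replicate 1, while Cxcl2 is well above background on KO replicate 3 alone.

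**Figure D2:**
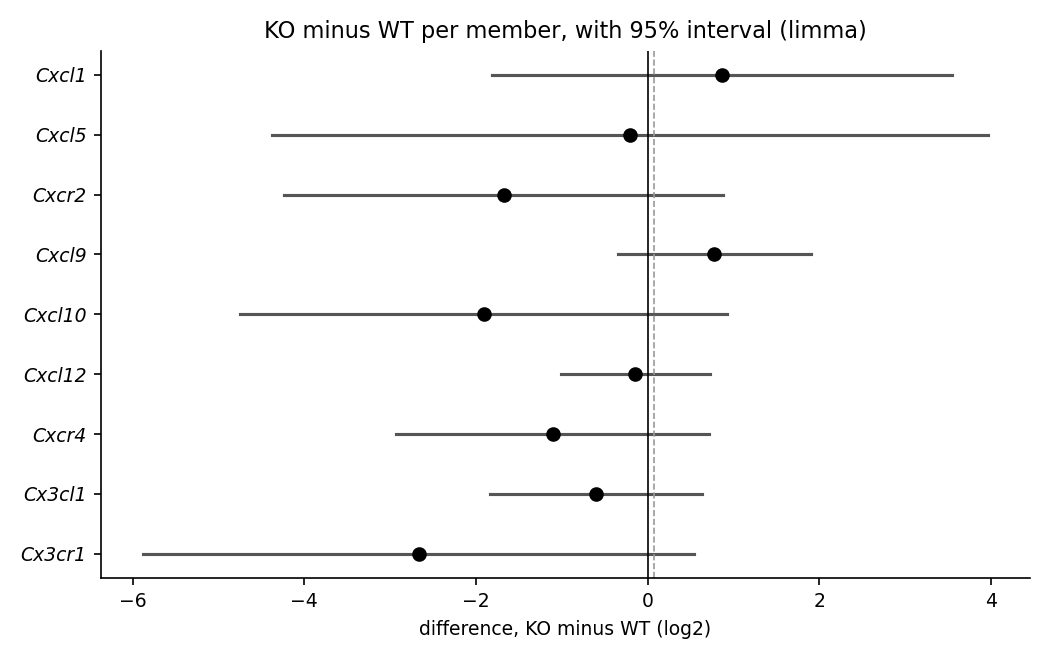
Difference KO minus WT (log2) of the 9 tested members with 95% intervals from limma; the solid line is 0 and the dashed line the median of all features. All 9 intervals include 0, and that of Cx3cr1 runs from -5.88 to 0.54.

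The neutrophil-attracting ligands CXCL1, CXCL2 and CXCL5 carry the amino acids ELR before their cysteines and act through CXCR2. Cxcl1 and Cxcl5 were each high on 1 array of each genotype and low on the other, and Cxcl2 was well above background on 1 KO array. Cxcl1, which stromal cells and macrophages release early after injury, had levels of 0.55 and -1.07 in KO hearts, against 0.02 and -2.27 in WT hearts. KO replicate 3 was highest and WT replicate 3 lowest, and the genotypes overlapped. Its means were -0.26 ± 1.15 in KO and -1.13 ± 1.62 in WT (SD, n = 2 each). The difference was 0.87 (SE 0.996, 95% interval -1.81 to 3.54, adjusted p = 0.772 in limma). Without WT replicate 3 the difference was -0.28, without WT replicate 1 it was 2.01, without KO replicate 3 it was 0.05 and without KO replicate 4 it was 1.68. Its direction therefore rested on WT replicate 3.

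Cxcl5, a ligand made by epithelial and stromal cells and platelets, varied widely within each genotype. Its levels were 2.50 and -0.42 in KO hearts, against 2.96 and -0.46 in WT hearts. KO replicate 3 and WT replicate 1 were high, the other 2 arrays were low, and the genotypes overlapped throughout. The range was 2.92 within KO and 3.42 within WT, and the difference of means was -0.21 (SE 1.55, 95% interval -4.38 to 3.96, adjusted p = 0.962 in limma). The sign was positive without WT replicate 1 (1.50) or without KO replicate 4 (1.25), and the value was -1.92 without WT replicate 3 and -1.67 without KO replicate 3.

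Cxcl2, a ligand released mainly by activated myeloid cells, was near background. Its levels were -4.64 and -7.96 in KO hearts, against -4.63 and -7.23 in WT hearts, and only KO replicate 3 was well above background. The scanner's own error of the spot was 10.9% of the signal on that array and 62.2%, 26.3% and 38.2% on KO replicate 4, WT replicate 1 and WT replicate 3. No fold is given, because the KO mean lay below the mean of the WT arrays' detection limits, and no difference is read from signals that were not well above background on the other 3 arrays.

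Cxcr2 encodes the receptor of these ligands and is carried above all by neutrophils. Its levels were -7.17 and -6.21 in KO hearts, against -3.77 and -6.25 in WT hearts. WT replicate 1 gave the highest value, and KO replicate 3, where the ligands were high, gave the lowest. The signal on KO replicate 3 was not well above background, and the others exceeded the lowest such signal of their array by 0.24 to 0.62. That lowest signal was -4.39 on WT replicate 1, against -7.08 to -6.50 on the other 3 arrays. The values of Cxcr2 on those 3 arrays lay below the limit of WT replicate 1, where Cxcr2 itself was 0.62 above it. Its higher value there is not read as more Cxcr2, because the genotype difference shrank under the other treatments of dim signals given below. The difference of -1.68 (SE 0.95, 95% interval -4.23 to 0.87, adjusted p = 0.740 in limma) changed to -0.44 when WT replicate 1 was left out. It was -2.92 without WT replicate 3, and leaving out KO replicate 3 gave -1.20 and KO replicate 4 gave -2.16. It was -0.31 when dim signals were raised to a common floor and -0.25 with normexp background correction. The genotypes overlapped by 0.04.

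Neutrophil markers fixed as a list are given beside these genes. Of 11 tested markers, 5 were lower and 6 higher in KO, with a median difference of 0.20. Their mean level was -0.86 and -0.96 in KO hearts, against -0.35 and -1.81 in WT hearts. A summed linear level was 56.4 and 67.7 in KO hearts, against 67.6 and 52.04 in WT hearts. On every array most of this sum came from the brightest marker alone, so it says little about the other markers. The genotypes overlapped by either measure, and 10 or 11 of the 11 markers were well above background on each array. The part of neutrophil number in the values above was not tested. In whole hearts, fewer cells of a type and less RNA per cell cannot be told apart.

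The promoters of Cxcl1 and Cxcl2 are shown because they share letters to which NF-kappaB proteins are known to bind. RefSeq windows of 250 bases before to 50 after the transcription start (GRCm38.p6) were found for 9 of the 10 members. They were searched on both strands for 4 motifs. The kappaB letters are GGG and TTCC parted by any 3 bases, and those of the interferon-stimulated response element are GAAA and GAAA parted by any 2. The letters bound by STAT dimers are TTC and GAA parted by any 3 bases, and those of the hypoxia element are ACGTG. The Cxcl1 window lies at chr5:90890995-90891294 on the plus strand and the Cxcl2 window at chr5:90903649-90903948 on the plus strand. Capitals mark matches to the kappaB letters.
Cxcl1: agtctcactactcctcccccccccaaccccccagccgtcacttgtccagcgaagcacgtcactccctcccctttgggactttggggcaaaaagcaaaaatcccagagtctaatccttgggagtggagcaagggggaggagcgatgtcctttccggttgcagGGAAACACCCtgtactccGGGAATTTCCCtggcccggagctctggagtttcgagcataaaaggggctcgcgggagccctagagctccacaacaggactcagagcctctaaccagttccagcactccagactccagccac
Cxcl2: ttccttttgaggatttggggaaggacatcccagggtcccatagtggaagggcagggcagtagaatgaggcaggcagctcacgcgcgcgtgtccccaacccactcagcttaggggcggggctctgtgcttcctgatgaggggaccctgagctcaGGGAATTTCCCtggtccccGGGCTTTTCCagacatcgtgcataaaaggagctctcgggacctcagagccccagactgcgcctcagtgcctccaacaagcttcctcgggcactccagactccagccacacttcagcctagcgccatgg
The run GGGAATTTCC, which overlaps a match on the opposite strand that starts 1 base later, begins 71 bases before the start of Cxcl1 and 97 bases before that of Cxcl2. A further match begins 89 bases before the start of Cxcl1 on the opposite strand, and another 78 bases before that of Cxcl2. The kappaB letters occurred in 3 of the 9 member windows (Cxcl1, Cxcl2 and Cxcl10) and in 5.56% of all 32851 promoter windows of that length. The hypoxia letters occurred in 1 member window, that of Cxcl1, and in 19.6% of all windows. These matches describe the sequence and were not measured as bound sites.

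Of 12 tested genes of NF-kappaB and its inducers, 7 were lower and 5 higher in KO, with a median difference of -0.13, and limma called 0. No member of the list passed an unadjusted p of 0.05. The list mean was -0.08 and -0.93 in KO hearts, against 0.30 and -0.77 in WT hearts, so KO replicate 3 and WT replicate 1 were the higher arrays here too. Among the remaining ELR ligands, Cxcl3 had levels of -1.89 and -8.46 in KO hearts, against -0.54 and -7.46 in WT hearts. It was high on KO replicate 3 and WT replicate 1, while KO replicate 4 and WT replicate 3 gave signals not well above background, so the low values are not measured levels. Ppbp, a platelet chemokine, had -0.76 and -1.56 in KO hearts, against 3.45 and -1.07 in WT hearts, where only WT replicate 1 was high and without which Ppbp differed by -0.10. Cxcr1 and Cxcl15 were not well above background on any array.

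CXCL9 and CXCL10 lack the ELR letters, are induced by interferons and act through CXCR3 on activated T cells and natural killer cells. The means of their genes differed in opposite directions between the genotypes. Cxcl9, which depends mainly on interferon gamma, had levels of -0.14 and -0.79 in KO hearts, against -1.51 and -0.97 in WT hearts. Both KO arrays were above both WT arrays, with a gap of 0.18 between the nearest arrays. Its means were -0.46 ± 0.46 in KO and -1.24 ± 0.38 in WT (SD, n = 2 each). They differed by 0.78 (SE 0.42, 95% interval -0.34 to 1.90, adjusted p = 0.740 in limma). The ranges within KO (0.66) and within WT (0.54) were smaller than this difference. Leaving out KO replicate 3 gave 0.45, KO replicate 4 gave 1.11, WT replicate 1 gave 0.51 and WT replicate 3 gave 1.05. A second probe for Cxcl9 had levels of -0.59 and -1.31 in KO hearts, against -2.10 and -1.61 in WT hearts, and a difference of 0.90. Both probes ordered the 4 arrays alike, from KO replicate 3 down to WT replicate 1.

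Cxcl10, which type I and type II interferons and NF-kappaB induce, was lower on both KO arrays. Its levels were 1.39 and -1.60 in KO hearts, against 1.87 and 1.74 in WT hearts. The WT arrays lay close together, KO replicate 3 was 0.35 below the nearer of them and KO replicate 4 was far lower. Its means were -0.10 ± 2.11 in KO and 1.80 ± 0.10 in WT (SD, n = 2 each). The difference was -1.91 (SE 1.06, 95% interval -4.74 to 0.93, adjusted p = 0.740 in limma), or 3.76-fold lower in KO, and was smaller than the range of 2.99 within KO. It was -0.42 without KO replicate 4 and -3.40 without KO replicate 3, while leaving out WT replicate 1 gave -1.84 and WT replicate 3 gave -1.98.

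The promoters of Cxcl10 and Cxcl9 are shown because both genes are induced by interferon. Whether their sequences bear on the values above was not tested. The Cxcl10 window lies at chr5:92348840-92349139 on the minus strand and the Cxcl9 window at chr5:92328030-92328329 on the minus strand. Capitals mark matches to the interferon-stimulated response element letters and the kappaB letters.
Cxcl10: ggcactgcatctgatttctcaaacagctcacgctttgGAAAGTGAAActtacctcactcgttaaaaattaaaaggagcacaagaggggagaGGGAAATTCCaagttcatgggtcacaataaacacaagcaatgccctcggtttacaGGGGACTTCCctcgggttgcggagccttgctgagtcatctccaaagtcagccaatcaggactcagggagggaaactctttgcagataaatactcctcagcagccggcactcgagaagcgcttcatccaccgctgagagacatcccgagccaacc
Cxcl9: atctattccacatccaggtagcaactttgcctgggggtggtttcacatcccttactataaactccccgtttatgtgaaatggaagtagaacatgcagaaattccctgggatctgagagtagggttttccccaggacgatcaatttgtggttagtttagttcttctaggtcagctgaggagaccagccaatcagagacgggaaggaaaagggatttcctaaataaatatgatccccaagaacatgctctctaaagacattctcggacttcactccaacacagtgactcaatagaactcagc
In Cxcl10, the run GAAAGTGAAA begins 213 bases before the start, and kappaB matches begin 159 and 104 bases before it. The window of Cxcl9 held none of these letters, which says nothing about sites outside it or spelled otherwise. The response element letters occurred in 1 of the 9 member windows and in 3.44% of all windows. The STAT letters occurred in 0 of the 9 and in 8.3% of all windows.

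Genes that respond to interferon are given beside this pair. Of 23 tested interferon-stimulated genes, 23 had a lower mean in KO, and limma called 0. Of these, 7 had an unadjusted p under 0.05, against 1.35% of all features that were lower at that threshold, and 14 did not overlap between genotypes, against 16.1% of all features that were lower without overlap. The list mean was 1.09 and 0.11 in KO hearts, against 1.30 and 2.24 in WT hearts, so KO replicate 4 was lowest here as for Cxcl10, while WT replicate 3 was the highest array. Among 12 tested genes of interferon signalling, 11 were lower and 1 higher. Stat2, a part of the complex that type I interferon activates, differed by -1.19 (SE 0.43), and its partner Irf9 by -0.76 (SE 0.39). Irf7, which amplifies interferon production, differed by -0.98 (SE 0.65). Ifngr2, a subunit of the interferon gamma receptor, was the gene of the list with a higher mean, by 0.81 (SE 0.41). Single arrays moved these values: without WT replicate 3, Irf7 differed by -0.27 and Irf9 by -0.48. Without WT replicate 1, Irf7 differed by -1.69 and Ifngr2 by 0.43, and without KO replicate 4, Irf7 differed by -0.52. Ifng itself was well above background on 1 array and was not tested. The receptor gene Cxcr3 had levels of -2.58 and -3.64 in KO hearts, against -2.25 and -3.55 in WT hearts, with overlapping genotypes. The T and NK cell markers had 2 genes lower and 5 higher of 7 tested. Their summed linear levels were 2.35 and 2.46 in KO hearts, against 2.22 and 2.005 in WT hearts. Their mean levels overlapped between genotypes, at -2.44 and -3.06 in KO hearts, against -2.49 and -3.09 in WT hearts. Their part in the values of Cxcl9 and Cxcl10 was not tested.

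**Figure D3:**
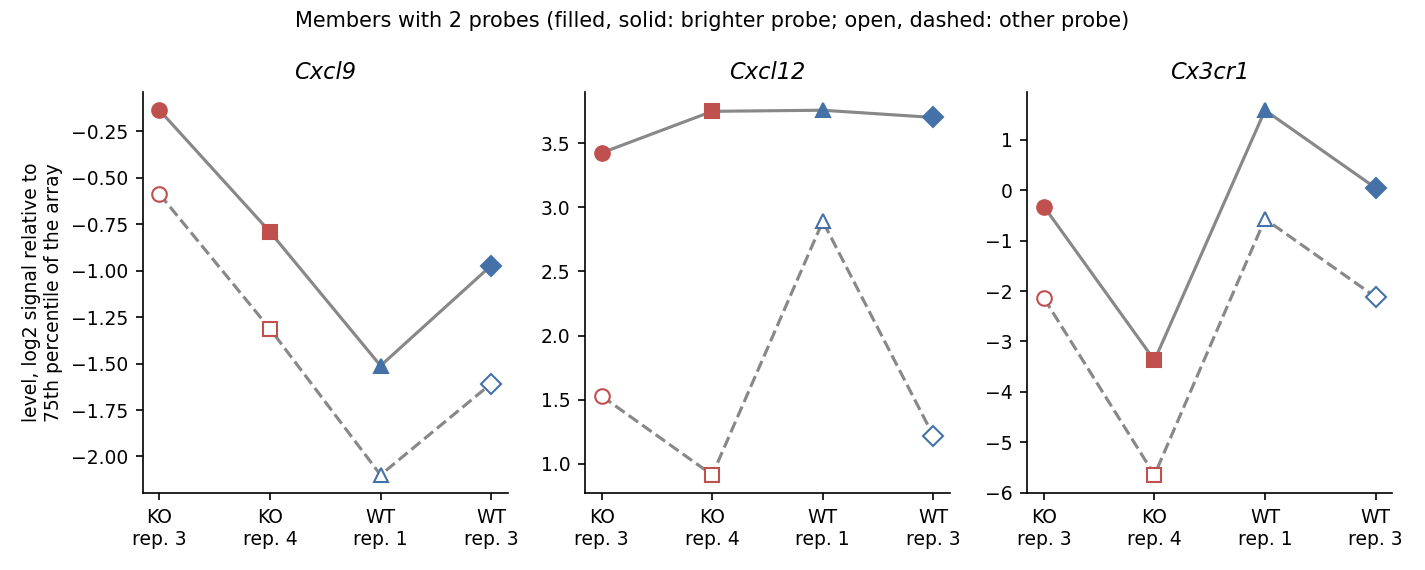
Levels (log2 signal relative to the 75th percentile of the array) of the 2 probes of Cxcl9, Cxcl12 and Cx3cr1 on each array; lines only join the values of a probe. The probes run in parallel for Cxcl9 and Cx3cr1, while for Cxcl12 the dimmer probe is high on WT replicate 1 (2.89) and the brighter one is flat.

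CXCL12 is a homeostatic chemokine of stromal and endothelial cells that signals through CXCR4, and ACKR3 removes it from the surroundings of cells. Cxcl12 had levels of 3.43 and 3.75 in KO hearts, against 3.76 and 3.70 in WT hearts, by its brighter probe. These 4 values span 0.33, KO replicate 3 is the lowest, and the genotypes overlap. The difference was -0.14 (SE 0.32, 95% interval -1.01 to 0.72, adjusted p = 0.873 in limma) and the interval runs from 0.497 to 1.65 times the WT level. Without KO replicate 3 it was 0.02, and without KO replicate 4 it was -0.30. The second probe, assigned to another transcript of the gene (NM_021704 in place of NM_001012477), had levels of 1.53 and 0.91 in KO hearts, against 2.89 and 1.22 in WT hearts. WT replicate 1 was high on that probe and the other 3 arrays were within 0.61 of each other. Whether each probe detects only its assigned transcript was not tested.

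Cxcr4, carried by many leukocytes and by endothelial tip cells, had levels of -2.10 and -3.48 in KO hearts, against -1.11 and -2.26 in WT hearts. WT replicate 1 was highest, KO replicate 4 lowest, and KO replicate 3 lay 0.16 above WT replicate 3. Its means were -2.79 ± 0.97 in KO and -1.68 ± 0.81 in WT (SD, n = 2 each). The KO minus WT value was -1.11 (SE 0.68, 95% interval -2.93 to 0.72, adjusted p = 0.740 in limma). This was -0.42 without KO replicate 4, -0.53 without WT replicate 1, -1.80 without KO replicate 3 and -1.68 without WT replicate 3. Ackr3 had levels of 2.70 and 2.95 in KO hearts, against 1.31 and 2.28 in WT hearts. It was higher on both KO arrays, by 1.03 (SE 0.45, adjusted p = 0.740 in limma), and did not pass the test. Leaving out WT replicate 1 gave 0.55.

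CX3CL1 is made as a membrane-bound protein, largely by endothelial cells and neurons, and shed by the proteases ADAM10 and ADAM17. Cx3cl1 had levels of 1.27 and 0.31 in KO hearts, against 1.55 and 1.23 in WT hearts. KO replicate 4 was low and the other 3 arrays were close together, with KO replicate 3 lying 0.05 above WT replicate 3. That gap is smaller than the scanner's own error of the spot, which was about 10% of the signal on each of these arrays. The difference was -0.60 (SE 0.46, 95% interval -1.83 to 0.64, adjusted p = 0.740 in limma), and it was -0.12 without KO replicate 4, -1.08 without KO replicate 3, -0.43 without WT replicate 1 and -0.76 without WT replicate 3. Adam10 differed by -0.59 (SE 0.47) and Adam17 by -0.22 (SE 0.37), both with overlapping genotypes. Without KO replicate 4 Adam10 differed by -0.16 and Adam17 by -0.11, and without WT replicate 1 Adam10 differed by -0.28 and Adam17 by 0.07. Without KO replicate 3 they differed by -1.03 and -0.33, and without WT replicate 3 by -0.91 and -0.51. The 12 endothelial markers had a higher mean in KO in 12 cases, with a median difference of 0.28 and summed linear levels of 105.6 and 88.1 in KO hearts, against 72.02 and 84.8 in WT hearts.

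Cx3cr1, the receptor gene that marks patrolling monocytes and many macrophages, had the largest difference of the 9 tested members. Its levels were -0.33 and -3.37 in KO hearts, against 1.59 and 0.05 in WT hearts. Both KO arrays were below both WT arrays, KO replicate 3 by 0.37 and KO replicate 4 by 3.42 relative to WT replicate 3. Its means were -1.85 ± 2.16 in KO and 0.82 ± 1.09 in WT (SD, n = 2 each). The difference was -2.67 (SE 1.19, 95% interval -5.88 to 0.54, adjusted p = 0.740 in limma), or 6.34-fold lower in KO, and 1.09% of all features differed by as much in either direction. The range within KO, 3.05, exceeded it. It was -1.14 without KO replicate 4, -4.19 without KO replicate 3, -1.89 without WT replicate 1 and -3.44 without WT replicate 3. The second probe had levels of -2.14 and -5.65 in KO hearts, against -0.57 and -2.12 in WT hearts, and a difference of -2.55. On that probe KO replicate 3 and WT replicate 3 were 0.03 apart, within the spot error of about 10% of the signal on each.

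**Figure D4:**
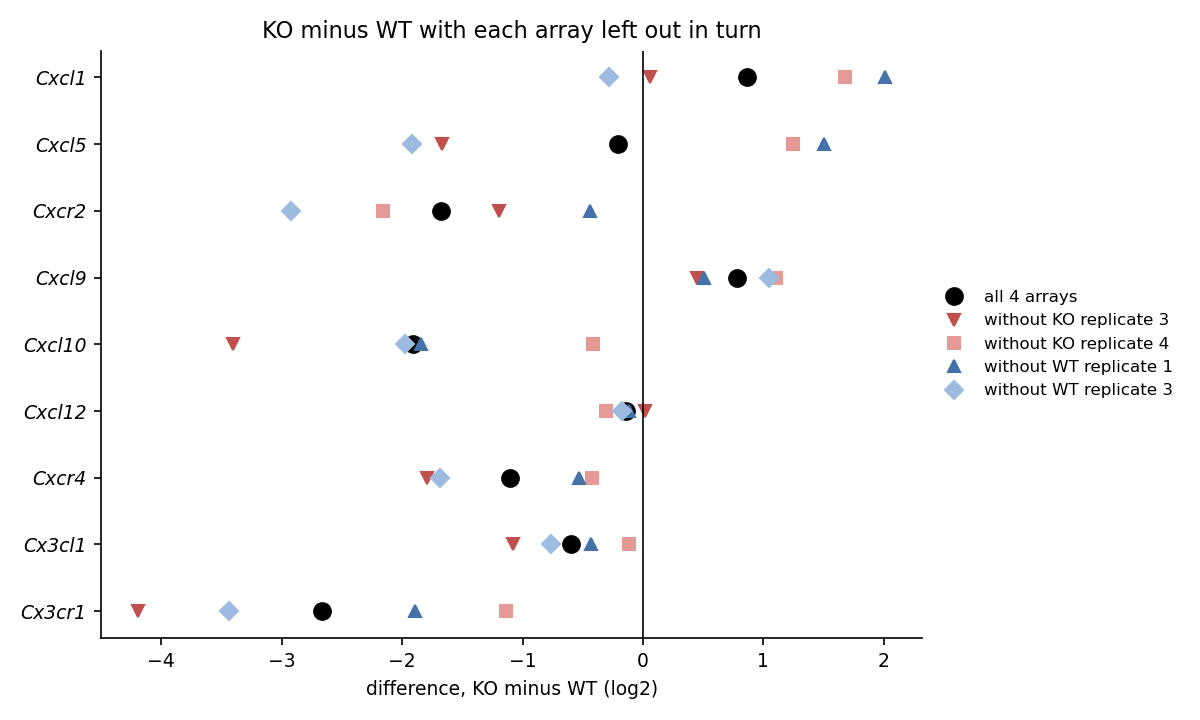
Difference KO minus WT (log2) of each tested member with all 4 arrays and with each array left out in turn. Cxcl9, Cxcl10, Cxcr2, Cxcr4, Cx3cl1 and Cx3cr1 keep their sign, while Cxcl1, Cxcl5 and Cxcl12 cross 0; Cx3cr1 spans -4.19 to -1.14.

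Most pan-macrophage and inflammatory monocyte markers had lower means in KO, as Cx3cr1, Cxcl10 and Cxcr4 did. Most resident and reparative macrophage markers had higher means. Of 11 tested pan-macrophage markers, 11 had a lower mean in KO, with a median difference of -1.21. Their summed linear level was 119.6 and 53.1 in KO hearts, against 267.7 and 161.3 in WT hearts, and 11 of 11 were well above background on every array. The mean level of these markers was 2.60 on KO replicate 3 and 1.12 on KO replicate 4, against 3.72 on WT replicate 1 and 2.73 on WT replicate 3. Of 7 tested inflammatory monocyte markers, 6 were lower, with a summed linear level of 149.3 and 82.7 in KO hearts, against 189.1 and 168.7 in WT hearts. That list included Fn1, which encodes the matrix protein fibronectin, so its sum is not a measure of monocytes alone. Of 9 resident and reparative macrophage markers, 3 were lower and 6 higher, with a median difference of 0.43. Their mean level was 0.87 and 1.27 in KO hearts, against 0.53 and 0.72 in WT hearts. By summed linear level, KO hearts had 44.3 and 49.5, against 55.7 and 39.3 in WT hearts, and the genotypes overlapped. The part of macrophage number in the values of Cx3cr1, Cxcl10 and Cxcr4 was not tested. Between the arrays numbered 3, KO replicate 3 minus WT replicate 3, Cx3cr1 differed by -0.37, Cxcl10 by -0.35 and Cxcr4 by 0.16.

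**Figure D5:**
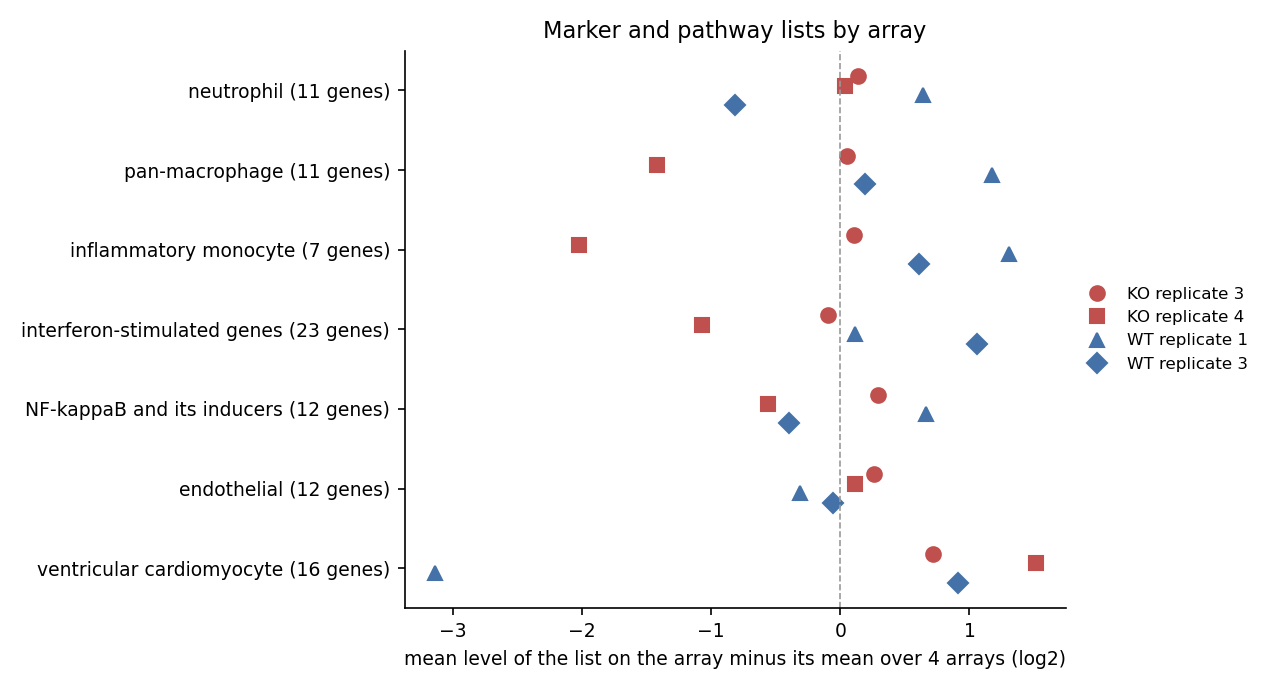
Mean level of 7 marker and pathway lists on each array, minus the mean of the list over the 4 arrays (log2). KO replicate 4 is lowest for the pan-macrophage, inflammatory monocyte, interferon-stimulated and NF-kappaB lists. WT replicate 1 is highest for the pan-macrophage, inflammatory monocyte, neutrophil and NF-kappaB lists. It is lowest for endothelial markers and far below the others for ventricular cardiomyocyte markers.

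The members thus fell into array patterns that differed among themselves. WT replicate 1 was the highest array for 7 of the 9 tested members, against 39.0% of all features, and KO replicate 4 was the lowest for 4 of the 9, against 27.6%. For each member, the gene with the nearest pattern was sought among 216 tested genes of the lists, after subtracting each gene's own mean over the 4 arrays. Cx3cr1 was nearest to Mmp12, a macrophage elastase, with a largest gap of 0.17 on any array. Cxcr4 was nearest to Tyrobp, a myeloid adaptor protein (0.15), and Cxcl10 to Fn1, fibronectin (0.25), a gene of the inflammatory monocyte list. Cxcl5 was nearest to Mpo, the neutrophil myeloperoxidase (0.14), and Cxcr2 to Mmp8, the neutrophil collagenase (0.52). Cx3cl1 was nearest to Adam10 (0.15), Cxcl9 to the endothelial receptor Kdr (0.29), Cxcl12 to Ndrg1 (0.07) and Cxcl1 to the T cell gene Cd3g (0.64). With 4 arrays these are descriptions only.

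The wider chemokine family gave further values. Of 8 tested CXC and XC genes outside the axes above, 5 were lower and 3 higher in KO. Cxcr6, a receptor of T cells and natural killer T cells, had levels of -1.45 and -4.05 in KO hearts, against 0.16 and 0.00 in WT hearts, a difference of -2.83 (SE 0.93). It was -1.53 without KO replicate 4. Its ligand gene Cxcl16 differed by -0.58 (SE 0.53) with overlapping genotypes, and by -0.02 without WT replicate 1, -0.25 without KO replicate 4, -0.91 without KO replicate 3 and -1.14 without WT replicate 3. Cxcl14, a chemokine of fibroblasts and epithelia, had 1.90 and 2.31 in KO hearts, against 0.99 and 0.53 in WT hearts, a difference of 1.34 (SE 0.37). The platelet chemokine Pf4 differed by -1.49 (SE 0.65; -0.67 without WT replicate 1 and -2.32 without WT replicate 3) and the B cell chemokine Cxcl13 by 2.10 (SE 1.79). None of these passed the test, the adjusted p of Cxcr6 and of Cxcl14 being 0.740 in limma.

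Most genes that process chemokines or carry the receptors' signal had lower means in KO, where 45.2% of all features did. Of 8 proteases, 7 were lower, with a median of -1.22. Mmp8, the neutrophil collagenase, differed by -2.21 (SE 0.76), by -1.22 without WT replicate 1 and by -1.41 with normexp correction. The macrophage elastase Mmp12, which cuts ELR chemokines, differed by -2.54 (SE 1.18). It was -1.10 without KO replicate 4, -3.98 without KO replicate 3, -1.66 without WT replicate 1, -1.22 with normexp correction and -0.22 between the arrays numbered 3. Of 16 genes of receptor signalling, 15 were lower, with a median of -0.61. Vav1, a signalling protein of leukocytes, differed by -1.89 (SE 0.70), and Rgs1, which shortens receptor signals in leukocytes, by -2.89 (SE 1.20). Without KO replicate 4 Vav1 differed by -1.20 and Rgs1 by -1.20, and without KO replicate 3 Rgs1 differed by -4.59. Rgs1 was -1.31 with normexp correction and -1.90 with the common floor. limma called 0 in either list. Pan-macrophage markers, 11 of 11 with lower means in KO and a median of -1.21, moved with both lists, and their part was not tested. Of 12 hypoxia response genes, 4 were lower and 8 higher, with a median of 0.38. The list mean was 2.42 and 2.57 in KO hearts, against 2.01 and 2.65 in WT hearts. These means overlapped, with WT replicate 3 highest and WT replicate 1 lowest.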

How the data were processed

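Total RNA of mouse hearts was read on 4 arrays, and genotypes and replicate numbers were taken from the sample titles. The authors deposited 1 scanner file per array; per the file headers, its processed intensity is background-subtracted and spatially detrended by Feature Extraction 11.0.1.1; version 9.1 is the one in the submitters' processing notes. Spot flags (other values) come from the same deposited files. The authors also deposited a table of log2 values, whose columns had slopes of 0.997 to 1.01 against log2 scanner signals and a median of 6.12 each over the matched probes, so its scale is log2 with the arrays aligned and its direction unchanged, and the aligning step is not given here.

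Control and outlier spots were left out, 0 spots were saturated, and spots of a probe were averaged. Log2 intensities had the 75th percentile of their array subtracted. Of 39429 probes, 27234 were named through the GRCm38.p6 RefSeq table; the arrays' grid is on mm9, so no array coordinates are given. Probes well above background on at least 2 arrays were kept, the brightest per gene. The genotypes were tested with limma's lmFit and eBayes (limma 3.58.1, R 4.3.3, two-sided, Benjamini-Hochberg over 22925 features). The number of arrays and the spread between them limit the precision. On simulated data at a spread 10 times smaller, 173 of 200 genes changed by 1, and 198 of 200 changed by 4, were recovered among 22925 features.

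Named genes are the 10 members, other chemokine genes, and up to 4 of smallest unadjusted p of each further list, with S1pr1 and, per member, the listed gene of nearest pattern; Adam10 and Adam17 fall outside that rule and were named for their role after their values were seen. Members and lists were chosen with earlier results of these data known. Alternatives tried were other scalings, background corrections, filters and probe summaries, trend and robust moderation, the deposited values, a common floor, each array left out and the arrays numbered 3 alone.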

Additional observations from a re-analysis of the deposited data

How the results depend on the processing

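No paired analysis was possible because the genotypes share only the number 3. limma called 0 features under every alternative that allows a test (the arrays numbered 3 alone do not); unadjusted p fell under 0.05 for 167 (without KO replicate 4) to 4251 features (without WT replicate 3), and the smallest adjusted p was 0.132. The count of members with a lower mean ranged from 6 to 8 when an array was left out and that with a higher mean from 1 to 3; between the arrays numbered 3 alone, 4 were lower and 5 higher. In that pair Cxcl5 differed by 2.96, Cxcr4 by 0.16, Cx3cl1 by 0.049, Cxcl3 by 5.56, Ppbp by 0.30, Cxcr3 by 0.97, Cxcl16 by 0.31, Adam10 by 0.15 and Adam17 by 0.19, each opposite in sign to the 4-array value; Cxcl3 was not well above background on WT replicate 3, so 5.56 is no exact difference, and with the common floor over 4 arrays it was -0.68. With arrays left out, signs turned for Cxcl5 (-1.92 to 1.50), Cxcl1 (-0.28 to 2.01), Cxcl12 (-0.30 to 0.020), Cxcl3 (-4.64 to 2.28), Cxcr3 (-0.86 to 0.44), Cxcl13 (-0.18 to 4.38) and Adam17 (-0.51 to 0.073). Without a filter 8 of 10 members were lower, and with detection required on all 4 arrays 6 of 8. Median scaling moved the median of all features by -0.11 and turned no member's sign. Cxcl12 was -0.49 as the mean of its probes, and with normexp correction Cxcl5 was -0.08 and Cxcr4 -0.70. The causes were not tested. Signal over background limits Cxcl2, Cxcl3 and Cxcr2.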
